A study of Arabidopsis thaliana with 28 samples.

Results

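PR-1-LIKE (AT2G19990), AT2G19970 and AT4G33720 are 3 Arabidopsis thaliana genes of the CAP family, out of 13286 genes that a probe set of 1 gene names on the array. Each is measured by 1 of the 22746 probe sets kept. They were picked from the data: PR-1-LIKE and AT2G19970 for low signals in plants overexpressing the zinc finger factor labelled ZF, and AT4G33720 for a high signal in plants overexpressing ERF5. Differences of the members from that control, which entered the choice, are therefore given as a description in every line, without a p-value. The members were tested in the cold, over the groups that played no part in the choice, and against the other wild type group. The spread in these tests came from all arrays, those used for the choice included. All 3 probe sets passed the filter on low signal.

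CAP proteins take their name from cysteine-rich secretory proteins, antigen 5 and pathogenesis-related protein 1. PR-1, the member after which plant relatives are called PR-1-like, is a small secreted protein that accumulates in leaves after infection and serves as the usual marker of salicylic acid signalling. Most other plant CAP genes are not markers of infection, and many are expressed mainly in roots or in reproductive tissue. Ethylene response factors such as ERF5 bind promoters of defence genes and take part in ethylene and jasmonate responses, and tandem zinc finger factors of the ZF kind bind RNA or DNA and act in stress responses.

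RNA came from the entire aerial parts of Col-0 plants grown on agar for 12 days at 22°C under constant light (intensity near 100 µmol), and was hybridised to 28 single-colour arrays in 14 groups of 2. WT_warm is wild type at 22°C. WT_cold is wild type held for 24 h at 4°C, under dimmer light, near 30 µmol, so that light and temperature changed together. WT_control is a further wild type group at 22°C that the labels name as the control for the transgenic plants. The remaining 11 groups, all at 22°C, each overexpressed 1 transcription factor: CRF2 (AT4G23750), CRF3 (AT5G53290), CZF1 (AT2G40140), DEAR1 (AT3G50260), ERF5 (AT5G47230), HSFC1 (AT3G24520), MYB44 (AT5G67300), MYB73 (AT4G37260), RAV1 (AT1G13260), ZAT10 (AT1G27730) and ZF (AT4G29190). The promoter that drives each transgene and the number of lines behind each group are not given in the sources used here, and the probe sets used here name neither ERF5 nor AT4G29190, so these 2 transgenes were not checked.

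Signals are log2 values from 2.13, the lowest in the table, to 14.94. Differences between groups are differences of mean log2 signals, with the standard error (SE) of a limma fit of all 28 arrays, and a call means a Benjamini-Hochberg adjusted p under 0.05 over 15916 probe sets. The labels call the replicates biological and say no more of their origin, so p-values measure the spread between these arrays. Array medians fell in 2 ranges, 5.77 to 5.84 in WT_warm, WT_cold and CZF1 and 5.33 to 5.48 in all other groups. Over all probe sets tested, the median difference of WT_warm from WT_control was 0.42, and that of CZF1 was 0.43. The part of this shift in comparisons across the 2 ranges was not tested. Replicate 2 of CRF3 stood apart, with a root mean square SD of 0.707 in that group against 0.181 to 0.382 in the others, so CRF3 is given array by array, and the calls that rest on it are also given without replicate 2. The aerial origin was checked on 3 of 10 leaf markers that the array names: the photosynthesis genes RCA, LHCB4.1 and LHCB4.2 lay between 10.32 and 14.24 in every array. Of 14 root markers 3 were named, and they were not absent: the root and hypocotyl beta-glucosidase PYK10 lay at 11.15 to 13.24, and the root hair expansins EXPA7 and EXPA18 lay at 3.12 to 6.42.

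PR-1-LIKE had its lowest level in ZF and its highest in ERF5. In WT_control its signals were 6.69 and 6.79, in ZF 3.61 and 3.32, and in ERF5 6.78 and 7.28. Both ZF arrays lay below both control arrays, and the lower ERF5 array lay within the control range. The mean difference from WT_control was -3.28 in ZF, 0.103 of the control signal on the linear scale, and 0.29 in ERF5. In WT_warm the signals were 5.31 and 4.49, so the wild type groups themselves lay apart, and against WT_warm the difference was -1.44 in ZF and 2.13 in ERF5. In bulk tissue, fewer cells that express a gene and less RNA per cell cannot be told apart.

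AT2G19970 was also lowest in ZF. Its signals were 8.24 and 8.38 in WT_control, 5.29 and 5.46 in ZF and 8.40 and 8.16 in ERF5. The ZF arrays lay below both control arrays, and the ERF5 arrays lay on either side of them. The difference from WT_control was -2.94 in ZF, 0.131 of the control signal on the linear scale, and -0.03 in ERF5. Against WT_warm, with signals of 7.11 and 6.57, it was -1.47 in ZF and 1.44 in ERF5, so the sign in ERF5 turned with the wild type group used.

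AT4G33720 was high in ERF5, where the other members lay near WT_control. Its signals were 5.29 and 5.03 in WT_control and 9.90 and 11.55 in ERF5, so both ERF5 arrays lay above both control arrays, and 11.55 was its highest signal anywhere. The difference was 5.57, or 47.3 times on the linear scale. In ZF both arrays read 2.36, close to the lowest value of the table, a difference of -2.80 from WT_control. WT_warm also read 2.36 in both arrays, so against that group the difference was 0.00 in ZF and 8.37 in ERF5. Of all probe sets tested, 2.2% were called lower in ZF and 0.0691% higher in ERF5 against WT_control, and both arrays lay below both control arrays in 24.6% in ZF and above them in 23.3% in ERF5.

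**Figure D1:**
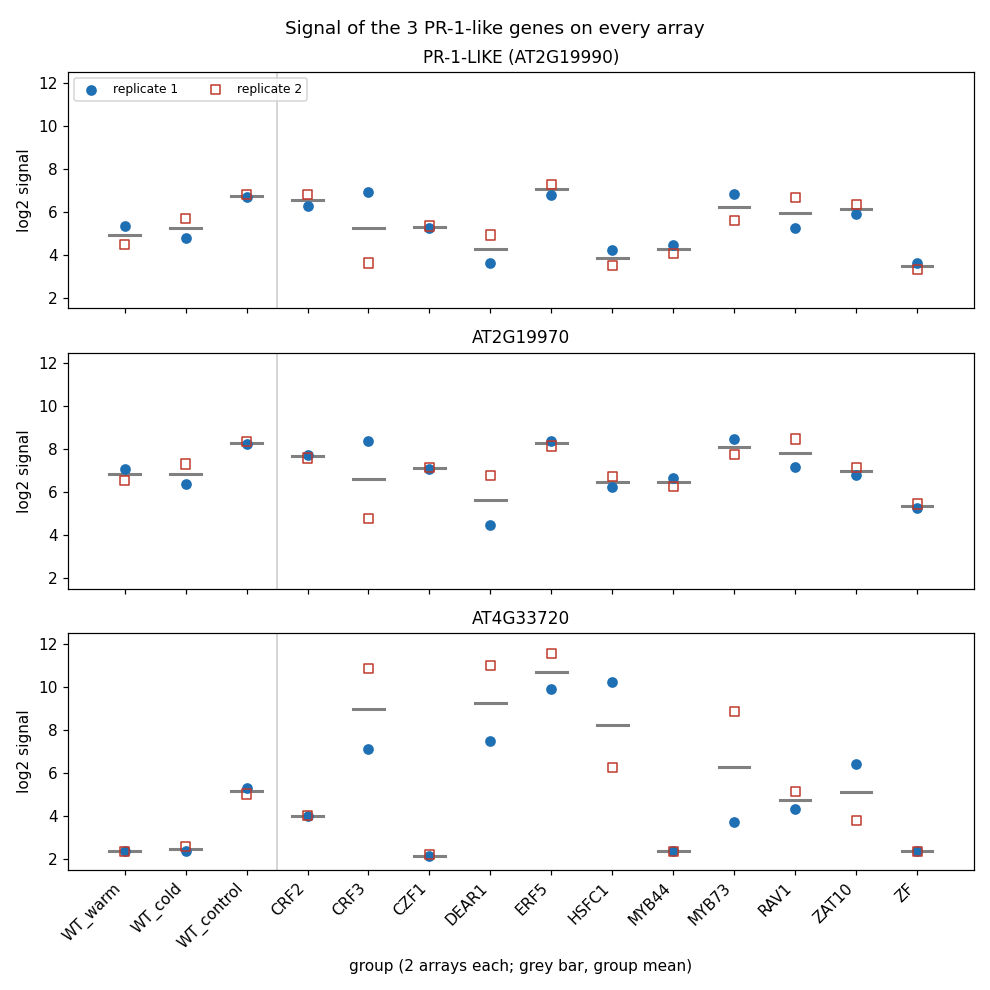
Log2 signal of PR-1-LIKE, AT2G19970 and AT4G33720 on each of the 28 arrays, with 1 point per array, the groups on the horizontal axis and a bar at each group mean. AT4G33720 reads 9.90 and 11.55 in ERF5 and 2.36 in both ZF and both WT_warm arrays, and its replicates lie far apart in CRF3, DEAR1, HSFC1, MYB73 and ZAT10.

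Other measures differed in the same plants. The summed signal of the 3 leaf markers was 14.61 to 14.79 in ZF against 15.09 to 15.16 in WT_control and 15.0 to 15.05 in ERF5, and LHCB4.2, a light-harvesting protein, read 11.95 to 12.20 in ZF against 13.06 to 13.16 in the control. The summed root markers overlapped between the 3 groups (12.01 to 12.42 in ZF, 12.00 to 12.20 in ERF5 and 11.93 to 12.24 in WT_control). PYK10, by far the strongest of them, set this sum (11.99 to 12.41 in ZF). The sum of EXPA7 and EXPA18 alone did not overlap between the 3 groups. It was 5.26 to 5.81 in ZF, 6.04 to 6.27 in WT_control and 6.89 to 6.93 in ERF5. Over the 4 wild type arrays at 22°C it ran from 4.90 to 6.27. EXPA7 was 5.84 to 5.95 in ERF5 against 4.72 to 4.74 in WT_control and 4.19 to 4.92 in ZF, and EXPA18 was 4.33 to 4.70 in ZF against 5.30 to 5.66 in WT_control and 5.82 to 6.01 in ERF5. As a sign of RNA quality, the difference between the 3′ and 5′ ubiquitin probe sets was 1.47 to 1.69 in ZF and 1.52 to 1.61 in ERF5 against 1.20 to 1.27 in WT_control. The same difference for GAPDH was 0.95 to 0.99 in ZF and 1.27 to 1.43 in ERF5 against 0.75 to 0.91 in WT_control, and that for actin was 5.56 to 5.65, 5.21 to 5.59 and 5.40 to 5.42. Over the 4 wild type arrays at 22°C the GAPDH difference ran from 0.75 to 1.83. The part of these measures in the members' values was not tested.

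The cold experiment asked what happened in wild type during a day at low temperature, with arrays that were not used to choose the genes. None of the 3 members was called. PR-1-LIKE read 5.31 and 4.49 in WT_warm and 4.78 and 5.69 in WT_cold, a difference of 0.34 (SE 0.73, limma adjusted p = 0.785). AT2G19970 read 7.11 and 6.57 in WT_warm and 6.41 and 7.32 in WT_cold, a difference of 0.03 (SE 0.78, limma adjusted p = 0.997). For both genes the cold arrays lay on both sides of at least 1 warm array, and an SE of this size leaves room for changes of more than 1 in either direction. AT4G33720 read 2.36 in both WT_warm arrays and 2.36 and 2.59 in WT_cold, a difference of 0.12 (SE 1.47, limma adjusted p = 0.977), and all 4 of these signals lay near the lowest value. Over all probe sets tested 14.1% were called higher and 13.1% lower in the cold.

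Variation over groups that played no part in the choice was tested next, with a limma F test. It compared 11 groups and left out ZF, ERF5 and WT_control. The spread still came from the fit of all groups, so the arrays used for the choice entered it, and the test is not independent of them. AT4G33720 varied most relative to its spread (F = 7.01, adjusted p = 0.000593), PR-1-LIKE also passed (F = 2.97, adjusted p = 0.0293), though not when only the groups compared were fitted (adjusted p = 0.0753), without the filter (adjusted p = 0.0931) or without replicate 2 of CRF2, HSFC1, MYB44 or ZAT10 (adjusted p up to 0.0771), and AT2G19970 did not (F = 1.61, adjusted p = 0.199). In this test 76.6% of all probe sets passed, so passing it sets no gene apart. The 2 ranges of array medians enter that test, and over the 8 lines of the lower range alone 29.9% passed. There AT4G33720 (F = 5.85, adjusted p = 0.00943) and PR-1-LIKE (F = 4.16, adjusted p = 0.0298) passed, and AT2G19970 did not (F = 2.28, adjusted p = 0.144). With CRF3 not compared, 72.0% passed, and the adjusted p was 0.00148 for AT4G33720, 0.0226 for PR-1-LIKE and 0.176 for AT2G19970. When the CRF3 arrays were also left out of the estimate of spread, AT2G19970 passed (F = 4.10, adjusted p = 0.00734).

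PR-1-LIKE was then followed through the 9 lines other than ZF and ERF5, all set against the same WT_control arrays that had served the choice. HSFC1, a heat shock factor of class C, read 4.22 and 3.50, and MYB44, a regulator in abscisic acid and stress responses, read 4.43 and 4.07. Both arrays of each lay below all 4 wild type arrays at 22°C, as they did for 27.0% of all probe sets in HSFC1 and 13.9% in MYB44. The difference from WT_control was -2.88 in HSFC1, and ran from -3.24 to -2.52 with 1 array left out. Over these lines together 1.66% of probe sets were called lower and 5.38% higher, and in HSFC1 5.18% were called lower. Since the control signals took part in the choice of the gene, its difference is a description and is not counted beside these shares. Against WT_warm the difference in HSFC1 was -1.04 (SE 0.73, limma adjusted p = 0.253). In HSFC1 the summed leaf markers were 14.50 and 14.71 against 15.09 to 15.16 in WT_control. The 3′ to 5′ differences were 1.66 and 1.71 for ubiquitin and 1.63 and 1.78 for GAPDH. In WT_control they were lower, 1.20 to 1.27 and 0.75 to 0.91. Over the 4 wild type arrays at 22°C ubiquitin ran from 1.08 to 1.33 and GAPDH from 0.75 to 1.83, so GAPDH in HSFC1 lay within that range. The part of these measures in the HSFC1 values was not tested.

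MYB44 differed by -2.49 from WT_control and by -0.65 from WT_warm (limma adjusted p = 0.55). DEAR1, an ethylene response family factor linked to defence and freezing tolerance, read 3.61 and 4.91, a difference of -2.48 from WT_control and of -0.64 from WT_warm (limma adjusted p = 0.505). CRF3, a cytokinin response factor, read 6.91 and 3.61, so its mean of 5.26 describes neither array. CRF2 (6.28 and 6.80), ZAT10 (5.89 and 6.34), MYB73 (6.84 and 5.58) and RAV1 (5.26 and 6.66) differed from WT_control by -0.20 to -0.78 in the mean. CZF1, whose array medians lie in the higher range, read 5.26 and 5.33 and differed from WT_warm by 0.40 (SE 0.73, limma adjusted p = 0.941). Ordered by mean level, PR-1-LIKE rose from ZF (3.47) through HSFC1, MYB44, DEAR1, WT_warm, WT_cold, CRF3, CZF1, RAV1, ZAT10, MYB73, CRF2 and WT_control to ERF5 (7.03). Every pair of neighbours in that order overlapped in its arrays, so the order between neighbours is not resolved with 2 arrays a group.

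For AT2G19970 the lowest levels after ZF were in DEAR1 (4.50 and 6.78), MYB44 (6.68 and 6.27) and HSFC1 (6.27 and 6.73), and all these arrays lay below both WT_control arrays, as did 20.7%, 20.0% and 31.2% of all probe sets in these lines. The differences from WT_control were -2.67 in DEAR1, -1.84 in MYB44 and -1.81 in HSFC1. Against WT_warm they were -1.20 (limma adjusted p = 0.238), -0.36 (limma adjusted p = 0.772) and -0.34 (limma adjusted p = 0.747), each with an SE of 0.78, and none was called. ZAT10 read 6.81 and 7.14 and CZF1 7.11 and 7.16, above which lay CRF2 at 7.75 and 7.60. RAV1 (7.16 and 8.48) and MYB73 (8.48 and 7.76) reached the control range in 1 array each, and CRF3 split into 8.41 and 4.80. By mean level the order ran from ZF (5.38) through DEAR1, MYB44, HSFC1, CRF3, WT_warm, WT_cold, ZAT10, CZF1, CRF2, RAV1, MYB73 and ERF5 to WT_control (8.31), and CZF1 and CRF2 were the single pair of neighbours whose arrays did not overlap.

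AT4G33720 spanned the widest range of the 3 members, from 2.13 to 11.55. It was near the lowest value of the table, at most 2.59, in both arrays of CZF1 (2.13 and 2.21), WT_warm, WT_cold, MYB44 (2.36 and 2.37) and ZF. A middle set held CRF2 (4.03 in both arrays), RAV1 (4.32 and 5.14), ZAT10 (6.43 and 3.80) and WT_control. High signals occurred in ERF5 and also in DEAR1 (7.48 and 11.02), CRF3 (7.13 and 10.86) and HSFC1 (10.25 and 6.27), in each of which both arrays lay above all 4 wild type arrays at 22°C. MYB73 had 1 low and 1 high array (3.71 and 8.85). The set near the lowest value and the middle set were 1.56 apart in mean level, and from RAV1 upward all neighbours in the order overlapped in their arrays.

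AT4G33720 differed from WT_control by 4.09 in DEAR1, 3.83 in CRF3 (1.97 without replicate 2) and 3.10 in HSFC1. No call against WT_control, the labelled control, is claimed for these lines, since its arrays took part in the choice. Against WT_warm, whose arrays both read 2.36, these lines were called. In DEAR1 the difference was 6.89 (limma adjusted p = 0.00239). It was 6.63 in CRF3 (limma adjusted p = 0.00222) and 5.90 in HSFC1 (limma adjusted p = 0.00355). The replicates lay 3.54 apart in DEAR1, 3.73 in CRF3 and 3.98 in HSFC1. The same SE of 1.47 served these lines and WT_warm, which lay near the lowest value and in the higher range of array medians. These calls were not repeated with single arrays left out. Replicate 1 of CRF3 alone lay 4.77 above the WT_warm mean, which was not tested. MYB73 was not called there (3.92, limma adjusted p = 0.0507). In that comparison 3.47%, 5.89% and 7.87% of all probe sets were called higher in DEAR1, CRF3 and HSFC1. All 4 wild type arrays at 22°C were exceeded by both arrays of the line in 3.56% of probe sets in DEAR1, 5.42% in CRF3, 10.3% in HSFC1 and 6.65% in ERF5. The size of these differences depended on the wild type used, and WT_warm minus WT_control was itself -2.80. For PR-1-LIKE that difference was -1.84 and for AT2G19970 -1.47, opposite in sign to the median of all probe sets. The summed leaf markers were 15.01 and 13.85 in CRF3 and 14.90 and 14.68 in DEAR1. The sum of EXPA7 and EXPA18 was 6.28 and 4.98 in CRF3, 5.47 and 6.74 in DEAR1 and 5.91 and 5.61 in HSFC1. In WT_warm it was 5.47 and 4.90, and in WT_control 6.04 and 6.27. The part of either sum in the members' values was not tested.

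**Figure D2:**
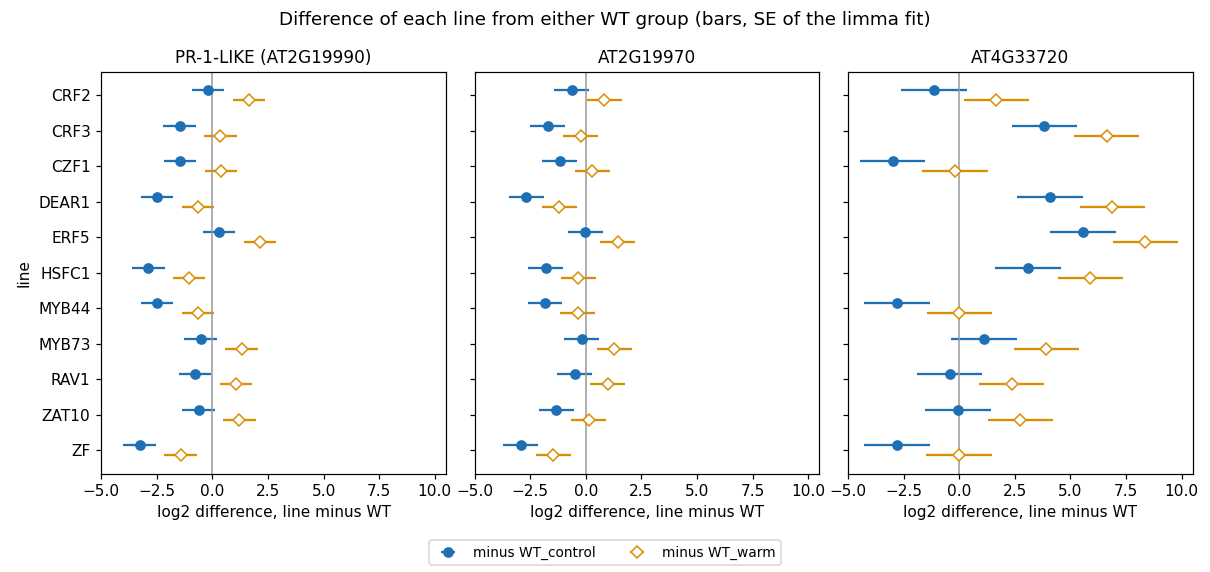
Difference in mean log2 signal of each line from WT_control (filled circles) and from WT_warm (open diamonds) for the 3 members, with bars for 1 SE of the limma fit. In AT4G33720, the DEAR1, CRF3, HSFC1 and ERF5 lines lie to the right of 0 against either wild type, while ZF lies at -2.80 against WT_control and at 0.00 against WT_warm.

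Replicates of the members disagreed far more than those of most genes. The root mean square SD over the 14 groups was 1.68 for AT4G33720, 0.891 for AT2G19970 and 0.826 for PR-1-LIKE, against a median of 0.256 over all probe sets tested. Of 15916 probe sets, 1 had a larger spread than AT4G33720, 84 than AT2G19970 and 125 than PR-1-LIKE. These ranks include CRF3 and were not repeated without it. The SD in CRF3 was 2.33 for PR-1-LIKE and 2.55 for AT2G19970. In the other groups it was at most 0.99 (RAV1) and 1.61 (DEAR1). For AT4G33720 the 2 arrays of a group lay more than 2 apart in 5 groups, with the widest gap, 5.14, in MYB73. PR-1-LIKE exceeded a gap of 2 in CRF3 alone (3.30) and AT2G19970 in CRF3 (3.61) and DEAR1 (2.28).

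**Figure D3:**
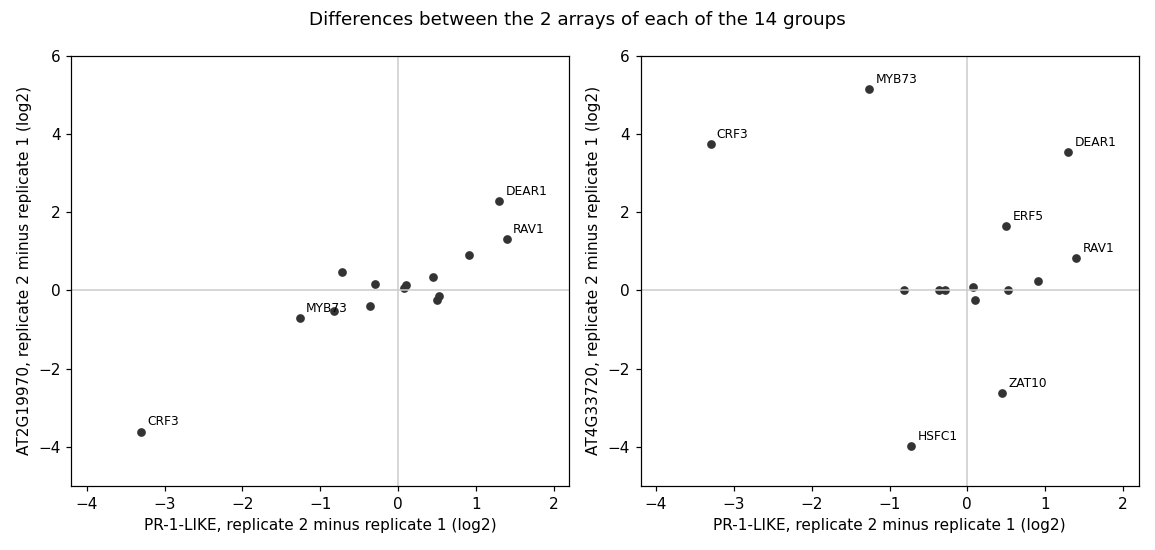
Replicate 2 minus replicate 1 in log2 signal for each group, for AT2G19970 against PR-1-LIKE and for AT4G33720 against PR-1-LIKE, with 1 point per group. The gaps of PR-1-LIKE and AT2G19970 lie along a rising line that ends in CRF3, where they are -3.30 and -3.61, while those of AT4G33720 reach 5.14 in MYB73 with no such line.

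PR-1-LIKE and AT2G19970 are 2 genes apart on chromosome 2 in the RefSeq gene table of assembly TAIR10.1, with the CAP gene AT2G19980 between them. Their group means went together: over the 11 groups that played no part in the choice Pearson's r was 0.822 and Spearman's rho 0.873, with r = 0.841 without HSFC1 and CRF2, the groups farthest from the median, and r = 0.834 over 10 groups without CRF3. These points share arrays and their normalization, and the value is a description. Their gaps between replicates also went together, with r = 0.908 over 14 groups and 0.821 over 10 of the groups not used for the choice, CRF3 left out. In 10 of 14 groups the array that was lower for one gene was lower for the other. AT4G33720 did not share this pattern, with r = -0.22 against PR-1-LIKE and -0.34 against AT2G19970 over the 11 groups. The likeness of replicate gaps was not particular to PR-1-LIKE and AT2G19970. Over 14 groups the gaps of AAH (AT4G20070) gave r = 0.909 with those of PR-1-LIKE. With those of AT2G19970, 5 other genes gave 0.918 to 0.94.

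Neighbouring genes were read in the same way, each for its own range over the 28 arrays. AT2G19980, in the middle of the chromosome 2 cluster, read 2.13 to 3.02, was under 3 in 27 of 28 arrays and was highest in WT_cold (3.02 and 2.87). HBT (AT2G20000), a subunit of the anaphase-promoting complex on the other side of PR-1-LIKE, read 5.77 to 6.94, and AT2G20010 beyond it read 6.09 to 7.05. Neither was called in ZF, with differences of 0.18 (limma adjusted p = 0.734) and -0.34 (limma adjusted p = 0.435). AT4G33720 is flanked on chromosome 4 by the CAP genes AT4G33710, at 2.13 to 2.22, and AT4G33730, at 2.18 to 3.11, both under the filter. AT4G33700, on the far side of AT4G33710, read 6.10 to 8.32 and was not called in ERF5 (0.32, limma adjusted p = 0.836).

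The CAP family list held 22 genes, of which 19 were named on the array by a probe set of their own. PR1 itself (AT2G14610), PRB1 (AT2G14580) and AT5G57625 were not analysed here. Of the 16 family genes other than the members, 8 passed the filter, these being AT1G50060, AT4G07820, AT4G25780, AT4G25790, AT4G30320, AT4G31470, AT5G26130 and AT5G66590. The other 8 (AT1G01310, AT1G50050, AT2G19980, AT3G09590, AT3G19690, AT4G33710, AT4G33730 and AT5G02730) exceeded 4 in 0 arrays. In the cold, 0 of these 8 tested genes were called higher and 1 lower, AT5G66590, by -1.52 (SE 0.37, limma adjusted p = 0.00453), and their median difference was -0.08 against -0.03 over all probe sets tested.

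In ZF, 0 of the 8 other tested CAP genes were called in limma and 1 had an unadjusted p under 0.05, where 4.92% of all probe sets were called higher and 2.2% lower. Their median difference was -0.38 against 0.06 over all probe sets, and their range was -1.05 to 0.06. In ERF5, 0 of 8 were called in limma, where 0.0691% of all probe sets were called higher. There 1 had an unadjusted p under 0.05, with a median of 0.24 and a range of -0.20 to 0.87 over the 8. AT4G31470 and AT4G30320 had their highest signals of all arrays in ERF5 replicate 2, at 5.70 and 6.11, with differences from WT_control of 0.87 (limma adjusted p = 0.417) and 0.63 (limma adjusted p = 0.771).

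Over the other 9 lines there were 2 calls among the 8 genes. AT5G66590 was lower in HSFC1 by -1.19 (limma adjusted p = 0.0412), where 5.18% of all probe sets were called lower, and by -1.02 against WT_warm (limma adjusted p = 0.0294). AT4G30320 was lower in CZF1 by -1.65 (limma adjusted p = 0.0114), where 3.85% of all probe sets were called lower, but WT_warm was itself lower than WT_control by -1.73 (limma adjusted p = 0.0102, with 3.74% of probe sets called lower), and CZF1 differed from WT_warm by 0.07 (limma adjusted p = 1.0). Neither gene was called when replicate 2 of WT_control was left out (0 calls over the lines). AT4G07820 reached 7.92 and 5.0 in RAV1 against 3.86 and 4.03 in WT_control, a difference of 2.52 that was not called (limma adjusted p = 0.498).

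**Figure D4:**
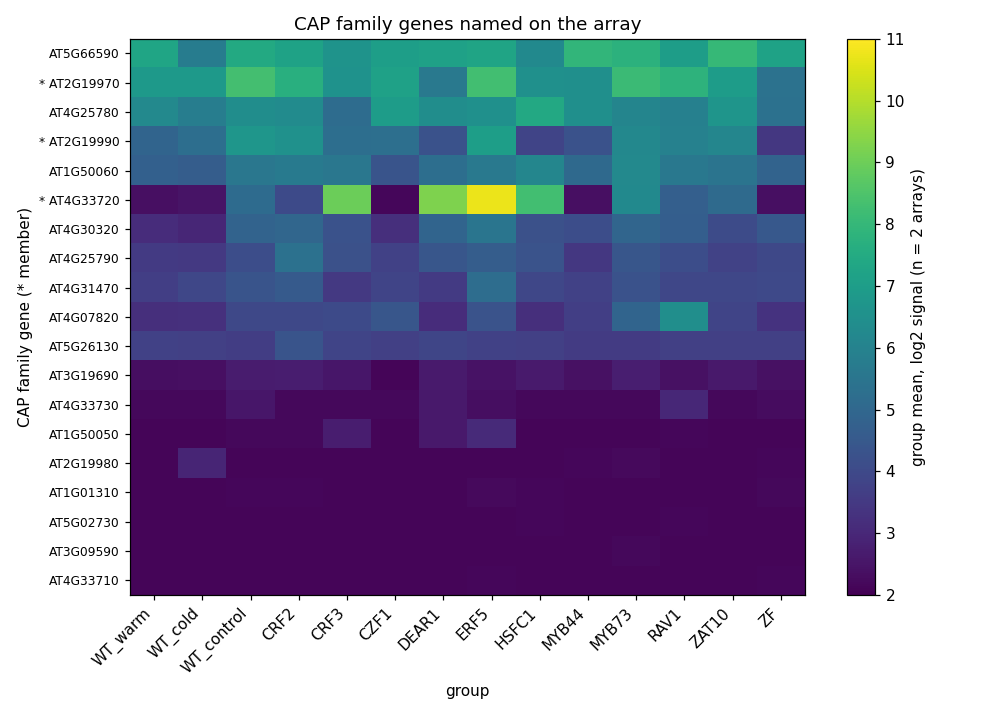
Log2 signal of the 19 CAP family genes named on the array (rows, members marked with a star) as the mean of 2 arrays in each of the 14 groups (columns), with colour for the mean. Means are to be compared along a row and not between rows. Of the 19 genes, 8 exceed 4 in 0 arrays, and the mean of AT4G33720 runs from 2.17 in CZF1 to 10.7 in ERF5.

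Other defence genes were counted from lists of pathogenesis-related (PR) families and of hormone pathways. Of 32 genes of other PR families (chitinases, glucanases, thaumatin-like proteins, defensins, thionins and the like) 13 were tested. In the cold 5 were called higher and 0 lower, with a median of 0.64, where 14.1% of all probe sets were called higher. The largest rises were 3.30 for AT2G43620, of the chitinase family, 2.99 for the defensin PDF2.1, 1.63 for the defensin-like LCR69 and 1.61 for the thionin THI2.2. In ZF 2 were called higher and 0 lower, PDF2.1 by 3.04 and the chitinase family gene AT2G43590 by 2.35, where 4.92% of all probe sets were called higher. In ERF5 1 was called higher and 0 lower, AT2G43590 by 2.85 (limma adjusted p = 0.0129), where 0.0691% were. These calls turned on the wild type used. AT2G43590 was itself higher in WT_warm than in WT_control, by 2.41 (limma adjusted p = 0.000349), and against WT_warm it differed by -0.06 in ZF (limma adjusted p = 0.937) and 0.43 in ERF5 (limma adjusted p = 0.398). PDF2.1 differed from WT_warm by 1.51 in ZF (limma adjusted p = 0.0869).

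In the lines with high AT4G33720 outside ERF5, 2 of the 13 were called higher in CRF3, where 5.79% of all probe sets were, 1 in HSFC1 against a background of 6.66%, and 1 in DEAR1 against 0.119%. The CRF3 calls, the chitinase CHI (AT2G43570), which read 4.91 and 10.68, and the osmotin OSM34 (AT4G11650), which read 9.82 and 11.77, were both lost without replicate 2 (limma adjusted p = 0.717 and 0.58). The HSFC1 call was also CHI, by 3.80, and by 3.92 against WT_warm (limma adjusted p = 0.0122). The DEAR1 call was AT2G43590, which differed from WT_warm by -0.03 (limma adjusted p = 0.965). In HSFC1 2 were also called lower, where 5.18% of all probe sets were. In CZF1, where AT4G33720 was near the lowest value, 6 were called higher than WT_control, where 32.4% of all probe sets were, and 3 were called higher than WT_warm, where 0.792% were. Few genes of hormone pathways were named. Of 29 salicylic acid pathway genes 2 were tested, SAG101, a partner of EDS1 in immunity, and GRX480, a glutaredoxin that binds TGA factors. Neither was called in the cold, ZF or ERF5. SAG101 was called higher in CRF3, with 5.73 and 6.60, but not without replicate 2 (limma adjusted p = 0.578), and GRX480 read 7.97 in CRF3 replicate 2 and 3.49 in replicate 1.

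Of 21 jasmonate and ethylene pathway genes 3 were tested, and 0 were called by limma in the cold or in the 11 lines, where over all probe sets 4.86% of tests were called higher and 1.56% lower. 2 of them, the defensins PDF1.2 and PDF1.2b, standard markers of combined jasmonate and ethylene signalling, had an unadjusted p under 0.05 in ERF5. In DEAR1 all 3 did, with differences from WT_control of 3.59 for PDF1.2, 2.62 for PDF1.2b and -0.43 for EIN3. In CZF1 and in ZAT10 the number was 1. PDF1.2 read 10.89 and 10.54 in ERF5 against 5.82 and 5.37 in WT_control, a difference of 5.12 (SE 1.13, limma adjusted p = 0.104), with no overlap. PDF1.2b, whose probe set can take up related transcripts, read 10.77 and 9.62 against 6.51 and 6.34, a difference of 3.77 (limma adjusted p = 0.183). In DEAR1, where AT4G33720 read 7.48 and 11.02, PDF1.2 read 11.78 and 6.59, so the array that was high for one gene was the lower for the other. EIN3, the transcription factor at the end of the ethylene pathway, differed by 0.14 in ERF5 (limma adjusted p = 0.911).

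By pattern over the 14 group means, the genes most like each member were sought among 8648 genes tested with 1 gene name. The 14 means include those that chose the members, so the likeness is a description. PR-1-LIKE was most like AT2G19970 (r = 0.914), then AT5G54130 (0.904), AT2G38600 (0.893), the peroxidase AT5G17820 (0.87) and UGT72E2 (0.853), an enzyme that adds glucose to lignin precursors. Over the 11 groups not used for the choice AT2G19970 came last of these 5. There r was 0.897 for UGT72E2, 0.865 for AT5G54130, 0.861 for AT5G17820, 0.838 for AT2G38600 and 0.822 for AT2G19970. All genes were not ranked anew over those groups. AT2G19970 was most like PR-1-LIKE (0.914), AT3G19430 (0.90), AT5G54130 (0.857), AT3G53980 (0.852) and AT2G38600 (0.825), so AT5G54130 and AT2G38600 stood in both sets. Over the same 11 groups r with AT2G19970 was 0.845 for AT3G19430 and 0.822 for PR-1-LIKE. It was 0.787 for AT5G54130, 0.779 for AT3G53980 and 0.724 for AT2G38600. In ZF the peroxidase AT5G17820 differed from WT_control by -1.43 and AT2G38600 by -1.22. AT4G33720 was most like SAL2 (r = 0.904), a relative of the phosphatase SAL1, then AT1G23850 (0.869), AT3G46340 (0.857), AT5G57500 (0.851) and AT4G16260 (0.846), of the beta-glucanase family, which differed from WT_control by 1.91 in ERF5 and by -0.67 in ZF. The other 4 differed by no more than 0.64 in ERF5. Ranked by Spearman's rho, 8 of the 15 stayed among the 5 most like.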

How the data were processed

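Values are log2 signals deposited by the authors in a table of 28 arrays. The submitters' processing notes name GCRMA and limma and give no version. Probe-level signals and sequences were not used here. Of 22810 probe sets, 64 array controls were left out. The platform annotation gave 1 gene for 13513 probe sets, several for 503 and none for 8730, and 13436 of the 13513 matched a locus in RefSeq's gene table (TAIR10.1), used only for names and gene order. Where several probe sets named a gene, the one with the highest mean was used. MYB44 and MYB73 follow the source names, since the array titles give MYB4 and MYB7.

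Probe sets with a log2 value over 4 in at least 2 arrays were tested (15916). Group means of all 28 arrays were fitted with limma 3.58.1 in R 4.3.3 (lmFit, eBayes, 14 residual and 4.49 prior degrees of freedom). The fit was tested on simulated data. The number of arrays limits the precision. The 3 members and the gene lists were chosen with earlier results of these data known. The members' comparison of 9 lines with WT_control, planned as a test, is given without p-values because the control entered that choice. Named genes are the members, every CAP gene, their neighbours, up to 4 called genes per other list and direction in the cold, ZF and ERF5, and the 5 most like each member. Markers, and CHI and OSM34 in CRF3 and HSFC1, SAG101, GRX480, PDF1.2, PDF1.2b, EIN3 and the replicate-gap genes were added after values were seen. Alternatives covered the filter, groups fitted, spread, quantile normalization, control group, replicate block and each array left out. F tests over 8 lines and without CRF3, and CZF1 against WT_warm, were chosen after seeing the data.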

Additional observations from a re-analysis of the deposited data

How the results depend on the processing

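In the cold none of the 3 members was called under any alternative. The variation of AT4G33720 over 11 groups passed under every alternative (F 5.70 to 10.6). That of PR-1-LIKE was lost when only the groups compared were fitted (F = 2.45, limma adjusted p = 0.0753) and without the filter (F = 2.46, limma adjusted p = 0.0931), and with each array left out in turn F ran from 2.31 to 7.82, with the call lost without replicate 2 of CRF2, HSFC1, MYB44 or ZAT10. That of AT2G19970 passed when the spread was estimated without the CRF3 arrays (F = 4.10) and without either CRF3 array (5.46 and 4.41), over a range of 1.22 to 5.46. Against all 4 wild type arrays at 22°C, and against WT_warm, the ZF difference was -2.35 and -1.44 for PR-1-LIKE and -2.20 and -1.47 for AT2G19970, and the ERF5 difference of AT4G33720 was 6.96 and 8.37. The ERF5 difference of AT2G19970 turned positive without WT_control replicate 2 (0.04), without ERF5 replicate 2 (0.09; lowest -0.15 without ERF5 replicate 1), against all 4 wild type arrays (0.70) and against WT_warm (1.44).

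Counts of calls moved most with the CRF3 arrays and with the control. Over the 9 lines, 0 of the members' differences from WT_warm were called lower and 3 higher, all 3 of AT4G33720. These were in DEAR1, CRF3 and HSFC1, where 3.47%, 5.89% and 7.87% of all probe sets were called higher than WT_warm. The share called lower than WT_warm is not given here. Counts of members against WT_control are not given, since its arrays took part in their choice. Other CAP genes called in the cold numbered 1, against 2 with all 4 wild type arrays and 0 to 1 with 1 array left out (0 without WT_warm replicate 1). In the 11 lines they numbered 2, against 1 with only the groups compared, 1 without a filter, 1 with a filter at 6, 4 without CRF3 in the spread, 7 with all 4 wild type arrays, 13 with WT_warm and 0 to 7 with 1 array left out. Genes of other PR families numbered 18 in the lines, against 31 with all 4 wild type arrays, 31 with WT_warm and 7 to 30 with 1 array left out (7 and 8 without WT_control replicate 1 and 2, 30 without CRF3 replicate 1). Salicylic acid genes numbered 1, against 0 without a filter, 2 with all 4 wild type arrays, 2 with WT_warm and 0 to 3. Jasmonate and ethylene genes numbered 0, against 2 with only the groups compared, 2 without CRF3 in the spread, 1 without a filter, 4 with all 4 wild type arrays, 8 with WT_warm and 0 to 3. Over the settings that left out no single array, calls of other PR families in the lines ran from 13 to 31. The shares of all probe sets called over the lines together under these alternatives are not given here. The counts therefore describe the settings and not the lists. The causes of these changes in count were not tested. Where leaving out an array leaves 1 in a group, that array is assumed to vary like the other groups.

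Groups share replicate numbers in the labels, but the numbers did not pair the arrays: over 91 pairs of groups the correlation of same-numbered deviations ran from -0.352 to 0.175, with 4 over 0.1. The replicate block changed none of the calls above (PR-1-LIKE F = 2.82, limma adjusted p = 0.0386, and AT4G33720 F = 7.05, limma adjusted p = 0.000779). Signals near 2.13 limit what can be said of AT4G33720 in WT_warm, WT_cold, CZF1, MYB44 and ZF, since a fall below that value cannot be seen.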

Other observations

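The wide gaps between replicates of AT4G33720 were set beside those of all other genes tested, a comparison chosen after the values were seen and given as a description. The gene whose gaps were most like it over the 14 groups was AT5G19890, a peroxidase, with r = 0.845, and 0.833 without CRF3. Its replicate 2 minus replicate 1 was 1.43 in CRF3, 1.88 in DEAR1, 2.87 in MYB73, -1.57 in HSFC1 and -0.51 in ZAT10, the same signs as in AT4G33720. The next genes were AT1G42440 (0.821), AT1G16670 (0.806), AT5G09450 (0.803) and the ubiquitin ligase PUB43 (0.801), with gaps of at most 0.60, 0.70, 0.74 and 0.55. For AT2G19970 the closest was AT1G04680, of the pectate lyase family (0.94), with gaps of -2.59 in CRF3 and 1.49 in DEAR1, and then AT5G10040 (0.933), with -3.80 and 2.66. For PR-1-LIKE the closest were AAH (0.909, and 0.786 without CRF3) and AT2G19970 (0.908, and 0.771 without CRF3).

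In the cold, where none of the 3 PR-1-like genes was called, the leaf marker list had 2 of 3 genes called lower by limma, with a median difference of -0.64, where 13.1% of all probe sets were called lower.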
